A study of Mus musculus with 12 samples.

Results

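The genes described here control whether a cartilage cell becomes hypertrophic, and were followed through the change from chondrogenic to osteogenic culture. The genes were chosen by symbol, as transcription factors, cofactors and a kinase with a known role in chondrocyte hypertrophy. The rule used no measured value, but the choice was made with earlier results of these data known. They are Mef2a, Mef2c, Mef2d, Foxa2 and Foxa3 as activators, Hdac4, Hdac5, Nkx3-2 and Zfp521 as repressors, and the kinase Sik3, 10 genes of the 28244 listed. All 10 passed the filter on low values, which 17674 genes passed, with no value at or under the level of 3 reads.

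Pellets were formed from primary cartilage progenitors of C57/BL6 mouse pups, 5 or 6 days old, and their RNA was sequenced. The study asked which genes change as cartilage cells take on a bone-forming phenotype. Every pellet was first kept for 7 days in chondrogenic medium. The 4 groups were then harvested at D7 (0 days in osteogenic medium), D8 (1 day), D10 (3 days) and D28 (21 days), with 3 libraries each, so every group shares the chondrogenic week. No library comes from a pellet kept in chondrogenic medium after D7, so the change of medium and the time in culture cannot be told apart. The sources used here name no genetic change or drug that distinguishes the groups, and do not give the contents of the media. The values for a time point describe whole pellets of cultured cells, not growth plate zones.

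Hypertrophy is the stage at which growth plate chondrocytes stop dividing, enlarge, and switch their matrix from type II to type X collagen. MEF2 transcription factors drive this switch, and class IIa histone deacetylases such as HDAC4 and HDAC5 bind MEF2 proteins and silence their targets. Parathyroid hormone-related protein (PTHrP) delays hypertrophy through its receptor PTH1R, by way of salt-inducible kinases, of which SIK3 holds HDAC4 in the cytoplasm. FOXA2 and FOXA3 are forkhead factors that activate hypertrophic genes, NKX3-2 keeps chondrocytes immature, and ZFP521 is a zinc finger cofactor that acts downstream of PTHrP. Much of this control works through phosphorylation and protein location, which RNA levels do not measure.

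The activators lie on several chromosomes of the mouse build GRCm38. Mef2a is at chr7:67231163-67372858 on the minus strand, Mef2c at chr13:83504034-83667080 and Mef2d at chr3:88142372-88172086, both on the plus strand. Foxa2 is at chr2:148042877-148046969 and Foxa3 at chr7:19013284-19023538, both on the minus strand. Of the repressors, Hdac4 (chr1:91928779-92195699), Hdac5 (chr11:102194432-102230166) and Nkx3-2 (chr5:41761483-41764501) are on the minus strand, as is Zfp521. Sik3 lies at chr9:46012820-46224194 on the plus strand. All are protein-coding genes in GENCODE M21, and the values count reads over the exons of each gene.

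The MEF2 proteins share their DNA-binding MADS box, and the start of the coding sequence encodes it and is shown because similar genes could share reads there. The first 57 codons of the longest coding transcript are given 5′ to 3′ on the coding strand of GRCm38, with capitals at the 48 of 171 positions where the 3 genes are not all the same. They span coding exon bases chr7:67316792-67316845 and chr7:67295462-67295578 for Mef2a, chr13:83575677-83575730 and chr13:83592778-83592894 for Mef2c, and chr3:88155809-88155862 and chr3:88156322-88156438 for Mef2d.
Mef2a: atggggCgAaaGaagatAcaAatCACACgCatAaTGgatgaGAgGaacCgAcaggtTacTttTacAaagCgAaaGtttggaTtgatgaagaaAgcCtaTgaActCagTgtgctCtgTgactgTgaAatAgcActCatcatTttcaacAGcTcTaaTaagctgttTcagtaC
Mef2c: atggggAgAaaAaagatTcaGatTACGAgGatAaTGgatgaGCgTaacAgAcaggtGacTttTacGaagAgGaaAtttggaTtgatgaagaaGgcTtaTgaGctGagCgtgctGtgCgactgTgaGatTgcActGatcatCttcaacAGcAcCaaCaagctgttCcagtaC
Mef2d: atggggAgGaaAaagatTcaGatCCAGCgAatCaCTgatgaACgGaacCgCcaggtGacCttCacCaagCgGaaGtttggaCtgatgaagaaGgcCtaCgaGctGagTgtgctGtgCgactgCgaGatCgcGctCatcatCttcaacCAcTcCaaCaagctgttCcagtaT
Mef2a and Mef2c were identical at 81.9% of these bases, Mef2a and Mef2d at 77.8%, and Mef2c and Mef2d at 82.5%. The longest run without a difference was 19 bases, between Mef2c and Mef2d, against reads of 59 bases. No 59-base read from this stretch is thus the same in a pair of these genes.

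Promoter windows are shown for Hdac4 and Foxa2, the members whose D28 libraries stood furthest from all others, in opposite directions. They are also shown for Hdac5, and for Col10a1, the hypertrophy marker that encodes type X collagen. Each run is the 250 bases before a RefSeq start site (GRCm38.p6), 5′ to 3′ on the gene's strand, at chr1:92180342-92180591 (Hdac4), chr2:148046970-148047219 (Foxa2), chr11:102230173-102230422 (Hdac5) and chr10:34389731-34389980 (Col10a1). The Hdac4 window, the single one found for that gene, lies inside the gene span given above and not before its 5′ end. Capitals mark matches to the searched letters, which were the MEF2 cores TATTTATA and TAAAAATA, the forkhead cores TGTTTAC and TGTTTGC, the cAMP response core TGACG and its full form TGACGTCA, the TATA box TATAAA and the RUNX core TGTGGT, all on both strands.
Hdac4: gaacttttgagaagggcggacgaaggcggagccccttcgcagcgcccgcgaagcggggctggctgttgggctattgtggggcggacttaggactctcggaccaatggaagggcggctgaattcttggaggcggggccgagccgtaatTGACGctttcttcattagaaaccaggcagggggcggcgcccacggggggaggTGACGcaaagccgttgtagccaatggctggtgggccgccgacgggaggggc
Foxa2: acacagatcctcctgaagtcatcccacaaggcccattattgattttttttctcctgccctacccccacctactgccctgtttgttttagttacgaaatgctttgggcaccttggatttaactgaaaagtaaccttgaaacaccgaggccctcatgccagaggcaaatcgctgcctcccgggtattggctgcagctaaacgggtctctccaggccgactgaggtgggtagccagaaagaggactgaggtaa
Hdac5: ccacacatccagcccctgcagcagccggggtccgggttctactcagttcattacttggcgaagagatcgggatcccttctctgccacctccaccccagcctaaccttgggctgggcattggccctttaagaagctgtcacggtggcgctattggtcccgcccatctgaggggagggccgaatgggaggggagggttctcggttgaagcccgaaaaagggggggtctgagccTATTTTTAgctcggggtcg
Col10a1: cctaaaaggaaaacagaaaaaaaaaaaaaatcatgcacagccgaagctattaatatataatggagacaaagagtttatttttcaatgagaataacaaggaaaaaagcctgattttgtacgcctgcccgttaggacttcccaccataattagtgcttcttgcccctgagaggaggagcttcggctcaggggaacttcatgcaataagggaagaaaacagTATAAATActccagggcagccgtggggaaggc
The Hdac4 window held TGACG at 103 and 51 bases before the start, and TGACG occurs in 17.8% of all 32851 promoter windows of this length. The Hdac5 window held the MEF2 core TAAAAATA on the opposite strand, 19 bases before the start, which 2.45% of all windows hold. The Foxa2 window shown, 1 of 3, held none of the searched letters, and another Foxa2 window (chr2:148045465-148045714) held TATAAA on the opposite strand, 208 bases before its start. In Col10a1 the MEF2 core TATTTATA, found in 1.56% of windows, lies on the opposite strand 32 bases before the start, and the capitals there also contain the TATA box letters. Windows were found for 9 of the 10 members, 13 windows in all, and Hdac5 was the only member with a MEF2 core in them. A match to such short letters is a description of the sequence and shows no binding.

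Each value below is the log2 of the authors' equalized read count plus 1, as deposited. The equalization gave all libraries nearly the same distribution, so the sequencing depth is known only through the lowest levels, where 1 read stood between 0.50 (D28) and 1.81 (D10) on the log2 scale. Time points were compared with limma, and a gene counts as called where its log2 fold change reached 1 in either direction and its Benjamini-Hochberg adjusted p, taken over all 17674 genes, was under 0.05. Nothing states that the 3 libraries of a time point came from separate cultures or litters, so the p-values measure only the spread between these libraries. The 5 comparisons share libraries and are not independent of each other. In whole pellets, fewer cells that express a gene and less RNA per cell cannot be told apart.

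Across the time course, 6 of the 10 members were called in at least 1 comparison, 60% against 38.2% of all genes tested. At D8 against D7, 1 day after the change of medium, no member was called, where 3.23% of all genes were called higher and 3.81% lower. After 3 days (D10 against D7) Mef2c, Nkx3-2 and Zfp521 fell and no member rose, against a background of 10.4% lower and 8.5% higher. From D10 to D28 Foxa2, Mef2c and Nkx3-2 rose and Hdac4 fell, where 13.8% of all genes were called higher and 13.7% lower. By D28 against D7, Foxa2 and Mef2a were higher and Hdac4 was lower, with backgrounds of 8.63% higher and 8.66% lower. Between the neighbouring points D10 and D8, Nkx3-2 alone was called, lower, with backgrounds of 4.08% higher and 5.58% lower.

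**Figure D1:**
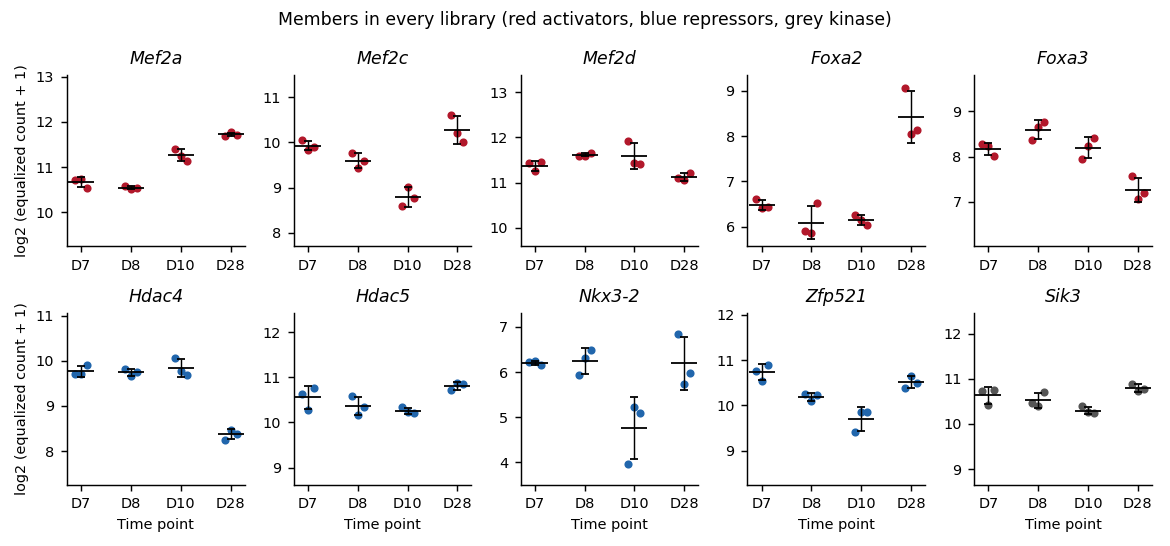
Values of the 10 members in every library on the log2 scale of the equalized count plus 1, by time point. Points are libraries, and the black bar and whiskers are the mean and SD of 3; all panels span the same number of log2 units. Foxa2 and Hdac4 each separate the D28 libraries from the other 9, in opposite directions. Mef2a (higher), Mef2d and Foxa3 (both lower) also separate them, by less.

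Among the MEF2 genes, the 3 members followed 3 different courses. Mef2a, an activator expressed in many tissues, stood at 10.72, 10.74 and 10.54 at D7 and at 10.58, 10.53 and 10.53 at D8. Its D10 values were 11.41, 11.25 and 11.14, and its D28 values 11.70, 11.77 and 11.71. Every D10 library was above every D7 and D8 library, and every D28 library was above all others. Mef2a rose by a log2 fold change of 1.06 ± 0.10 (SE) from D7 to D28, 2.09-fold (adjusted p = 5.1e-07, limma). Its difference at D10 against D7, 0.60 (adjusted p = 0.00013), and at D28 against D10, 0.46 (adjusted p = 0.00085), stayed under the fold change threshold. Without D7 replicate 3 the D28 against D7 value was 0.998, just under the threshold of 1, and the call was lost.

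Mef2c, which is needed for hypertrophy in the growth plate, dipped and came back. It stood at 10.05, 9.84 and 9.91 at D7 and 9.77, 9.44 and 9.59 at D8. It was lowest at D10 with 8.59, 9.02 and 8.78, and stood at 10.62, 10.20 and 10.00 at D28. The D10 libraries lay below all 9 others, while the D28 range overlapped that of D7. Mef2c fell by 1.14 ± 0.15 (SE) on the log2 scale from D7 to D10 (adjusted p = 3.0e-05) and rose by 1.48 ± 0.15 (SE) from D10 to D28, 2.79-fold (adjusted p = 1.1e-06). The D28 against D7 difference was 0.34 with a 95% confidence interval from 0.01 to 0.67 and an adjusted p of 0.095.

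Mef2d, the MEF2 member with the highest level per kilobase of all exons at every time point, was called in no comparison. Its 12 values ran from 11.06 to 11.92, and both ends lay late in the course, at D28 replicate 2 and D10 replicate 1. The D28 libraries were below all the others, by 0.47 ± 0.12 (SE) against D10 (adjusted p = 0.0046) and by 0.25 ± 0.12 (SE) against D7 (adjusted p = 0.13). D10 replicate 1 lay above the other D10 libraries, which stood at 11.44 and 11.42.

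The 2 FOXA genes differed in direction at D28. Foxa2, a forkhead factor that binds promoters of hypertrophic genes, stood at 6.61, 6.40 and 6.44 at D7, 5.90, 5.85 and 6.51 at D8, and 6.25, 6.14 and 6.04 at D10. At D28 it stood at 9.07, 8.05 and 8.14. All 3 D28 libraries were far above the other 9, and D28 replicate 1 was the highest. Foxa2 rose by 2.28 ± 0.27 (SE) from D10 to D28, 4.84-fold (adjusted p = 3.5e-06), and by 1.94 ± 0.27 (SE) from D7, 3.83-fold (adjusted p = 3.5e-05). Without D28 replicate 1 these differences were 1.95 and 1.61, and both calls remained.

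Foxa3, which acts beside FOXA2 in growth plate cartilage, was lowest at D28 with 7.56, 7.06 and 7.19. At D7 it stood at 8.27, 8.23 and 8.02, at D8 at 8.38, 8.64 and 8.77, and at D10 at 7.94, 8.24 and 8.41. The D28 libraries lay below all 9 others, so the ranges did not overlap. The D28 differences were -0.93 ± 0.18 (SE) against D10 (adjusted p = 0.00036) and -0.91 ± 0.18 (SE) against D7 (adjusted p = 0.00076), both inside the fold change threshold. Leaving out D28 replicate 1 moved them to -1.07 and -1.06, past the threshold.

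Endoderm also expresses FOXA genes, so the endoderm and liver markers were examined beside Foxa2. Of 5, only Apoa1 could be tested, and it rose from 1.49 at D10 to 7.18 at D28. Sox17, Afp and Ttr were at 0 in all D28 libraries, while Alb, at 0 in all D10 libraries, stood at 2.52, 0 and 2.52 at D28. The summed unlogged level of the 5 was at most 4.67 in the D10 libraries and up to 253.4 in those of D28. Most of the highest sum was Apoa1, at 7.96 in D28 replicate 1, the library with the highest Foxa2 value. Foxa1, the remaining family member, had at most 3 reads in all 12 libraries and was not tested. The part of other cell types in the Foxa2 values was not tested.

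Among the repressors, the class IIa deacetylases also differed in direction at D28. Hdac4, the deacetylase whose loss gives early hypertrophy in mice, stood at 9.70, 9.70 and 9.91 at D7, 9.82, 9.65 and 9.76 at D8, and 10.07, 9.77 and 9.68 at D10. At D28 it stood at 8.26, 8.47 and 8.39. The first 3 time points overlapped each other, and every D28 library lay more than 1 log2 unit below them. Hdac4 fell by 1.47 ± 0.12 (SE) from D10 to D28, 2.76-fold (adjusted p = 9.3e-08), and by 1.40 ± 0.12 (SE) from D7 to D28, 2.63-fold (adjusted p = 3.6e-07). Before D28 its differences were between -0.03 and 0.09, with 95% confidence intervals that stayed within -0.29 and 0.35.

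Hdac4 shares 3536 of its 15813 exonic bases with Gm26720, a non-coding gene on the opposite strand that the table does not list. The setting for strand in the read counting is not given in the sources used here, so reads from this stretch cannot be assigned with certainty. Of all 59-base stretches in Hdac4 transcripts, 21.4% also occur in transcripts of other genes, Gm26720 among them. The share was 7.62% for Mef2d, 3.15% for Mef2a and 0.54% for Hdac5. Mef2d shares 531 exonic bases with the antisense gene 1700113A16Rik, Mef2a 302 with Lysmd4, and Hdac5 111 with the microRNA gene Mir8101. Mef2c, Foxa2, Foxa3, Nkx3-2, Zfp521 and Sik3 share 0 exonic bases with another gene.

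Hdac5, a close relative of HDAC4, was called in no comparison. Its values ran from 10.18 at D8 to 10.88 at D28, and the D28 libraries (10.71, 10.88 and 10.85) overlapped those of D7 (10.64, 10.27 and 10.76). The D28 against D10 difference was 0.55 ± 0.13 (SE, adjusted p = 0.0022) and the D28 against D7 difference 0.26 ± 0.13 (SE, adjusted p = 0.14), both with the sign opposite to that of Hdac4.

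Nkx3-2, a homeobox repressor of chondrocyte maturation, had the lowest value of the set, in a D10 library. It stood at 6.22, 6.24 and 6.16 at D7 and 5.93, 6.31 and 6.49 at D8. At D10 it stood at 3.98, 5.23 and 5.10, and at D28 at 6.85, 5.74 and 5.99. The D10 libraries lay below all the others, and D10 replicate 1, the library with the highest level for 1 read, gave the lowest value, at a level that corresponds to 7 reads. Nkx3-2 fell by 1.47 ± 0.35 (SE) from D8 to D10, 2.77-fold (adjusted p = 0.0059), and by 1.44 ± 0.35 (SE) from D7 to D10 (adjusted p = 0.0041). It rose by 1.42 ± 0.35 (SE) from D10 to D28 (adjusted p = 0.0032), to a D28 mean 0.02 below that of D7 with a 95% confidence interval from -0.77 to 0.74. Without D10 replicate 1 the 3 differences were -1.08, -1.04 and 1.03, and the calls remained. Under the study's own rule for calls, the rise from D10 to D28 was not called.

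Zfp521 fell over the first 3 days. It stood at 10.77, 10.54 and 10.89 at D7 and at 10.24, 10.09 and 10.23 at D8. Its D10 values were 9.40, 9.84 and 9.86, and its D28 values 10.39, 10.65 and 10.50. The D7, D8 and D10 ranges did not overlap, and the D28 range overlapped that of D7. The difference from D7 to D8 was -0.54 ± 0.13 (SE, adjusted p = 0.0085), the only one of the 10 members with an adjusted p under 0.05 in that comparison, and under the fold change threshold. Zfp521 fell by 1.03 ± 0.13 (SE) from D7 to D10, 2.05-fold (adjusted p = 1.7e-05). This call was lost without D7 replicate 3 (-0.95) and without D10 replicate 1 (-0.88). From D10 to D28 the difference was 0.81 ± 0.13 (SE, adjusted p = 9.4e-05).

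Sik3, the kinase that acts between PTHrP and HDAC4, was called in no comparison, and its 12 values ran from 10.24 to 10.88. The D10 libraries (10.39, 10.26 and 10.24) lay below those of the other time points, by 0.33 ± 0.11 (SE) against D7 (adjusted p = 0.028). The D28 against D10 difference was 0.49 ± 0.11 (SE, adjusted p = 0.0018), and that against D7 was 0.16, with a 95% confidence interval from -0.08 to 0.40.

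**Figure D2:**
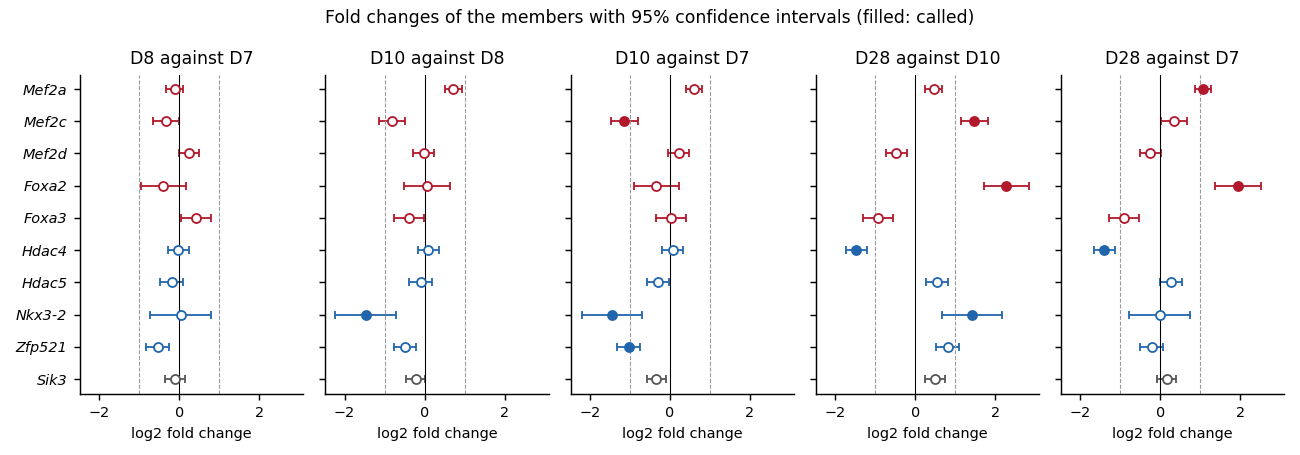
Log2 fold changes of the 10 members in the 5 comparisons, with 95% confidence intervals from limma. Red marks activators, blue repressors and grey the kinase, filled points are called, and dashed lines are at -1 and 1. The D28 against D10 panel holds 4 called members and no interval that crosses 0.

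Counted by the adjusted p alone, with no fold change threshold, 1 of the 10 members passed at D8 against D7, 4 at D10 against D8, 5 at D10 against D7, 10 at D28 against D10 and 4 at D28 against D7. The same shares over all genes tested were 21.0%, 28.8%, 41.2%, 52.4% and 37.3%. The median log2 fold change of the members was -0.12, -0.16, -0.31, 0.52 and 0.07 in these comparisons, against 0.03, 0.00, 0.05, -0.10 and -0.03 over all genes tested. Neither all activators nor all repressors moved one way. At D28 against D10 the called rises were Foxa2, Mef2c and the repressor Nkx3-2, and the called fall was the repressor Hdac4.

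To compare the members with each other, unlogged equalized counts were divided by the length of all exons of a gene in kilobases. Mef2d had the highest level at every time point, 444 ± 32.5 per kilobase at D7 and 374 ± 21.0 at D28 (SD, n = 3), and its range did not overlap that of the next gene. Mef2a stood at 111 ± 8.29 at D7, in 6th place, and at 231 ± 6.01 at D28, in 2nd place. At D28 the ranges of Mef2a, Zfp521 (209 ± 18.9), Hdac5 (205 ± 12.6), Sik3 (190 ± 10.9) and Foxa2 (152 ± 64.9) overlapped from each gene to the next. Foxa2 was last at D7 with 37.4 ± 2.93, below Nkx3-2 at 42.5 ± 1.37. Hdac4 held the last place at D28 with 20.9 ± 1.57, below Nkx3-2 at 44.4 ± 19.3, and stood at 55.3 ± 4.71 at D7. The order depends on the length used, since with the longest transcript in place of all exons Mef2a came out at 612 ± 15.9 at D28, above Mef2d at 414 ± 23.2. The shares within families rest on the same choice of length.

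Within families, the share of Mef2a in the summed level per kilobase of the 3 MEF2 members was 18.0% ± 1.97 (SD, n = 3) at D7 and 15.1% ± 0.40 at D8. It was 23.6% ± 1.77 at D10 and reached 33.7% ± 1.55 in the D28 libraries. The share of Mef2c was 10.1% ± 0.39 at D7, 4.05% ± 1.09 at D10 and 11.7% ± 2.51 at D28. Mef2d made up the rest, 71.9% ± 2.13 at D7 and 54.6% ± 2.53 at D28. The summed level of the 3 genes was 617 ± 31.4 per kilobase at D7 and 685 ± 13.2 at D28. Hdac4 made up 24.4% ± 2.55 of the sum of Hdac4 and Hdac5 at D7, 29.3% ± 2.00 at D10 and 9.25% ± 0.19 at D28. Foxa2 made up 20.9% ± 1.48 of the sum of both FOXA genes at D7, 17.2% ± 3.40 at D10 and 65.6% ± 4.76 at D28. The order of the 2 FOXA genes was thus exchanged in each of the 3 D28 libraries, while Hdac5 was above Hdac4 in all 12.

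**Figure D3:**
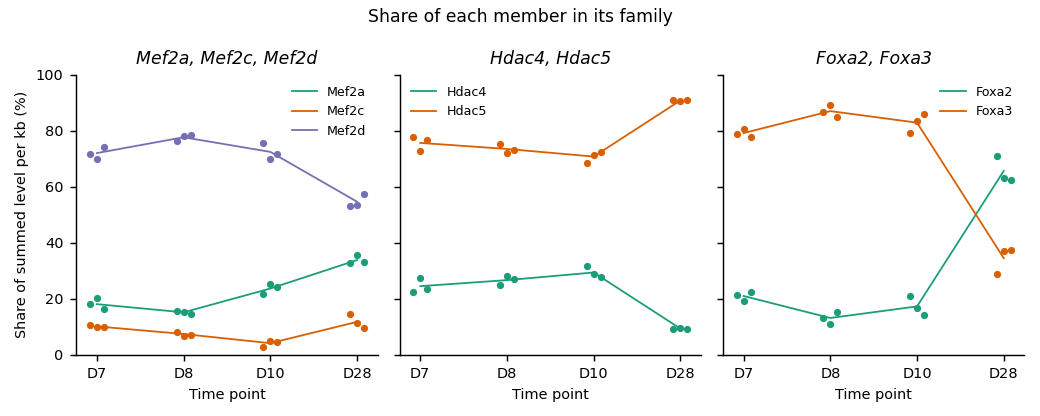
Share of each member in the summed level per kilobase of its family, in percent, by time point. Points are libraries and lines join the means of 3. Foxa2 is above Foxa3 at D28 alone (62.5% to 71.1%), and the Hdac4 share at D28 is between 9.11% and 9.46%.

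Other members of these families were taken from a list of 8, of which 6 could be tested. Mef2b fell at D28, from 5.05 ± 0.34 at D7 to 2.98 ± 0.46 (SD, n = 3), a difference of -2.07 on the log2 scale (adjusted p = 0.00049). Hdac9, another class IIa deacetylase, fell by 1.52 from D10 to D28 (adjusted p = 0.014), from a low level of 5.03 ± 0.69. Sik2 rose by 1.26 from D7 to D10 (adjusted p = 0.00019) and Sik1 fell by 1.10 from D7 to D28 (adjusted p = 0.00059). Hdac7, at 8.91 ± 0.26 at D7 and 9.29 ± 0.23 at D28, and Zfp423, at 8.12 ± 0.28 and 8.46 ± 0.26, were not called.

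Upstream of the members, 33 genes of PTHrP signalling, salt-inducible kinase partners and deacetylase transport were tested. At D10 against D7, 3 rose and 4 fell, with a median log2 fold change of -0.03. Both counts are near the shares of all genes, 8.5% higher and 10.4% lower. Pth1r, the PTHrP receptor, fell from 13.17 ± 0.35 at D7 to 10.31 ± 0.22 at D10, by 2.86 on the log2 scale (adjusted p = 8.4e-09), and rose by 2.09 to D28 (adjusted p = 7.6e-08). Pthlh, which encodes PTHrP, fell by 1.55 from D7 to D10 (adjusted p = 0.00058). Camk4, a kinase that can phosphorylate class IIa deacetylases, fell by 1.96 (adjusted p = 2.7e-06). Gnas, the stimulatory G protein gene, fell by 1.06, and the rises were Camk2d, Prkd2 and the 14-3-3 gene Ywhag. At D28 against D10, 3 of the 33 rose and 2 fell, below the 13.8% and 13.7% of all genes, with a median of -0.24, and at D28 against D7 only Camk2a was called, lower by 2.02.

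Of 13 hypertrophic and target genes, which again include Pth1r, 1 rose and 8 fell from D7 to D10, with a median log2 fold change of -1.33. Over all genes tested, 8.5% were called higher and 10.4% lower. The gene of the list that rose was Spp1, which encodes the matrix protein osteopontin, by 2.15, with the same rank-fixed value of 18.92 in all 3 D10 libraries. From D10 to D28, 8 of the 13 rose and 2 fell, with a median of 2.09, against 13.8% higher and 13.7% lower over all genes. Ihh, the Indian hedgehog signal, stood at 7.94, 7.88 and 7.39 at D7, was at 0, 2.84 and 2.44 at D10, where 2 libraries held at most 3 reads, and stood at 9.27, 7.68 and 6.71 at D28. Mmp13, a collagenase of late hypertrophy, fell by 2.64 from D7 to D8 (adjusted p = 1.5e-05) and rose by 2.45 from D10 to D28 (adjusted p = 2.6e-06). Alpl, the phosphatase of mineralizing cartilage and bone, fell by 3.26 from D7 to D10 (adjusted p = 9.7e-08), Ibsp, a bone matrix protein gene, fell by 6.34 (adjusted p = 8.0e-10) and the channel gene Panx3 fell by 2.01 (adjusted p = 6.1e-05).

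Col10a1 took another course. It stood at 17.27 ± 0.11 at D7, 17.58 ± 0.39 at D8 and 18.10 ± 0.39 at D10 (SD, n = 3). It fell to 14.28 ± 1.22 at D28, by 3.82 against D10 (adjusted p = 2.7e-06), with the D28 libraries at 15.64, 13.31 and 13.89. At D28, Foxa2 and Mef2a were thus at their highest values and Hdac4 at its lowest, in the libraries in which Col10a1 was lowest. Within D28, replicate 1 had the highest values of Col10a1 (15.64) and Foxa2 (9.07). The same library had the lowest D28 values of Hdac4 (8.26) and Mef2a (11.70). Mmp13 at D28, 15.46 ± 0.10, differed from D7 by -0.06. At the top of the distribution the equalization fixes values by rank, which limits the scale of the Col10a1 differences.

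Of 11 early cartilage genes, 0 rose and 7 fell from D7 to D10, and 5 rose and 1 fell from D10 to D28. Over all genes the shares were 8.5% higher and 10.4% lower, then 13.8% and 13.7%. Among the 11, the following were named. Matn3 had the largest fall of these, 4.37 on the log2 scale, and Acan, Comp, Matn1 and Hapln1 fell at D10 and rose at D28. Sox9 and Sox5 were called in no comparison. The D10 dip of Mef2c and Nkx3-2 thus lay at the time point at which most of these cartilage genes were also lowest.

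**Figure D4:**
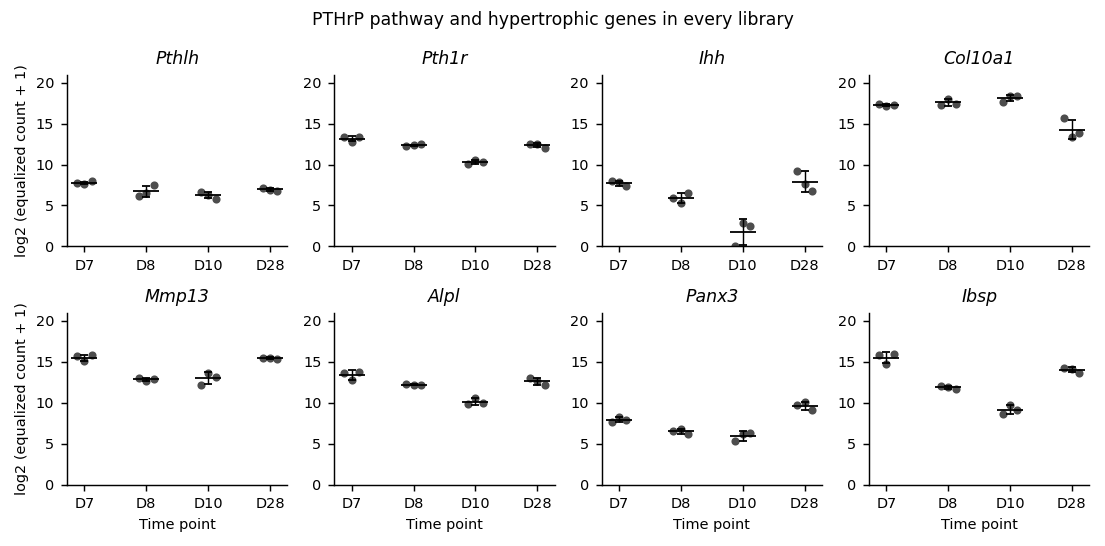
Values of 8 genes of PTHrP signalling and hypertrophy in every library, on the log2 scale of the equalized count plus 1. Points are libraries, with the mean and SD of 3. Pth1r, Ihh, Alpl and Ibsp are lowest at D10, where the mean of Col10a1 is highest at 18.10.

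Markers of other cell types moved with these changes. Of all genes, 3.23% were called higher and 3.81% lower from D7 to D8, and 8.5% and 10.4% from D7 to D10. The shares were 13.8% and 13.7% from D10 to D28, and 8.63% and 8.66% from D7 to D28. MEF2 genes are also active in skeletal muscle, and 6 of 8 muscle markers fell from D7 to D10 and 8 of 8 from D7 to D28. Their summed unlogged level ran from 2725 to 3415 in the D7 libraries, lay between 306 and 395 at D10, and between 91.2 and 173 at D28, and Myf5 was at 0 in all D28 libraries. All 5 adipocyte markers fell from D7 to D10 and rose to D28, with sums from 3831 to 4492 at D7, 838 to 1323 at D10 and 29058 to 38149 at D28, and Lep was at 0 in all D10 libraries. Endothelial sums were low, between 21.9 and 49.8 at D7 and between 58.4 and 235 at D8, and of 6 markers Pecam1 (2.27) and Kdr (2.55) rose in that comparison. At D10 these sums lay between 15.5 and 99.1, and at D28 between 20.0 and 37.9. Of 5 osteoblast markers, Bglap (3.25) and Dmp1 (3.17) rose from D7 to D10, while Ibsp, Sp7 (-1.33) and Col1a1 (-1.51) fell. From D10 to D28, Bglap, Ibsp and Sp7 rose and none fell. Neuron sums were at most 138, and of the 4 neuron markers Tubb3 rose by 1.55 from D7 to D10 and fell by 2.98 to D28. Snap25 and Syt1, at no more than 3 reads in the D10 libraries, were called higher at D28, at means of 2.57 and 1.99. Leukocyte sums lay between 188 and 244 at D7, 320 and 414 at D8, 466 and 966 at D10, and 231 and 861 at D28. Cd68 had the highest mean of these markers at every time point. It rose by 1.88 from D7 to D10, while the macrophage marker Adgre1 fell by 2.18. From D10 to D28 Adgre1 (3.07) and Csf1r (2.64) rose and Cd68 fell by 1.09. D28 replicate 2 was highest in both rising genes, with Adgre1 at 4.75, 7.49 and 5.36 and Csf1r at 4.72, 7.92 and 5.13 in the D28 libraries. Of 6 chondrocyte markers, Acan (-1.17), Col9a1 (-1.65), Hapln1 (-2.13) and Matn1 (-1.83) fell from D7 to D10, while Col2a1 and Sox9 were not called. Their summed level is mostly Col2a1, which the equalization set by rank to 20.92 in every D7, D8 and D28 library and to 19.87 in every D10 library, so the sum is not given. From D10 to D28, 3 of these 6 markers rose and none fell. The part of these cells in the values of the members was not tested.

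Genes with the most similar course over the 12 libraries were searched among those with a mean of at least 5 at each time point, as a description, since the course has 4 time points and all libraries share 1 normalization. For Foxa2 they were Pygb (Pearson's r = 0.97), Jak2 and Heg1, all highest at D28. For Hdac4 they were Cdc25a (r = 0.98), a phosphatase of the cell cycle, Lta4h and Letmd1. For Mef2a they were Clec2d (r = 0.98), Cpeb2 and Car13. Mef2c was nearest to Lrp4 (r = 0.98), Dhrs7 and Atp9a, and Zfp521 to Apln (r = 0.99), the matrix gene Tnc and Olfml2b. Nkx3-2 was nearest to Spop (r = 0.96), Plcd1 and Susd5, of which Susd5 stood at 13.67 at D7, 11.47 at D10 and 13.73 at D28. Among pairs of members, Foxa2 and Hdac4 had the most negative correlation, r = -0.94 over 12 libraries, with the 3 D28 libraries apart from the rest in both genes.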

How the data were processed

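RNA from 12 pellet libraries was sequenced, 3 at each of 4 time points. Per the submitters' processing notes and the supplementary methods, reads were trimmed with Trimmomatic 0.36, aligned with HISAT2, annotated with Cufflinks and counted with HTSeq, then equalized between samples. The authors deposited log2 values, the log2 of the equalized count plus 1. Such values do not keep library totals. The supplementary methods state a nominal depth per sample, and the depth of each library is otherwise known only from the read levels at its bottom. The notes name GRCm38, the build of the annotation used here (GENCODE M21), while the supplementary methods name a human genome.

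The filter kept genes that reached a log2 value of 1 in 3 or more libraries. They were fitted in R 4.3.3 by limma 3.58.1 with 1 coefficient per time point, a variance trend, 8 residual and 7.23 prior degrees of freedom, and two-sided p-values with Benjamini-Hochberg adjustment. The fit was tested on simulated data. The members and gene lists were chosen with earlier results of these data known. All members are named, together with up to 6 genes of a list that were called in at least 3 comparisons, relatives and PTHrP genes fixed by name, and a few others chosen after their values were seen. Alternatives covered the filter, scaling, pseudocount, low values, replicate block, variance trend, call rule, gene length and each library left out. Python 3.11.15 was used for sequences and figures (matplotlib 3.10.9, numpy 2.4.6, pandas 2.3.3).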

Additional observations from a re-analysis of the deposited data

How the results depend on the processing

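Over 23 alternative settings, 1120 of 1150 fold changes of members in a comparison kept their side of the threshold, 14 lost a call, 16 gained one and 0 called values changed sign. Among the 1120, 21 values that were not called changed sign. With no fold change threshold, 1, 4, 5 and 10 members were called at D8 against D7, D10 against D8, D10 against D7 and D28 against D10, in place of 0, 1, 3 and 4. With a log2 fold change of at least 2, 0, 0, 1 and 0 members were called at D10 against D8, D10 against D7, D28 against D10 and D28 against D7. The same settings moved the genes called over all genes tested, D28 against D10, from 4854 to 9259 and 2095, while no other setting moved a count over all genes by more than 1.5 times. Under the rule of the study, Nkx3-2 was not called at D28 against D10. Leaving out D10 replicate 1 or D28 replicate 1 brought Foxa3 past the threshold at D28 against D10 (-1.05 and -1.07).

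Median-of-ratios scaling moved the median of all genes at D28 against D10 from -0.10 to 0.01 and changed no call among the members. The replicate numbers did not pair the libraries, as the 18 correlations between same-numbered libraries ran from -0.06 to 0.07 and 0 of 12 libraries correlated best with its own number. With the replicate number as a replicate block, the members called were 0 at D8 against D7 and no call among the members changed. With the unlogged totals not kept, depth limits Nkx3-2 at D10 and the genes at or under 3 reads. No sequencing batch or date was examined.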
